A study of Homo sapiens with 9 samples.

Results

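The genes described here are the vasoactive peptides NPPB, NPPA, ADM, ADM2 and EDN1 and the receptor genes EDNRA, EDNRB, CALCRL, RAMP1 and RAMP2. Members were taken as every probe set that the platform annotation assigns to exactly 1 gene of that list, which gave 15 probe sets of 9 genes among 19775 genes with such a probe set. EDNRA, the remaining gene of the list, had no probe set assigned to it alone and was not analysed here. NPPB and ADM were picked for their rises in these arrays, so their values are given as a description with no test. WA09, an established human embryonic stem cell line, was profiled under 3 conditions with 3 arrays each. The DOX arrays hold cells labelled as damaged by DOX for 5 h, where DOX is read as doxorubicin, a drug that traps topoisomerase II on broken DNA. The RA arrays hold cells kept for 2 days with 1 µM retinoic acid, and the medium for them had no FGF added, whereas that of pluripotent cultures did, so both factors changed together. The pluripotent arrays hold cells of the same line that received neither agent. The labels describe cultures on irradiated mouse embryonic fibroblasts and feeder-free cultures, and do not say which gave each array. They also do not state whether arrays of 1 condition come from separate cultures, so each p-value reflects array-to-array spread that may be technical.

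Values are normalised log2 intensities per probe set, and differences between them are log2 changes, given with limma's standard error (SE). The median probe set lay at 4.66, array medians ran between 4.62 and 4.68, and arrays of 1 condition correlated at 0.994 to 0.997 across probe sets. The third pluripotent array had the lowest limma array weight, 0.578. No measure of background was used, so a level near or below the median probe set is not shown to lie above background, and a fold against it may be a lower bound. The labels were checked on known responders. CDKN1A and MDM2, both p53 targets, were 3.71 and 2.02 higher on the DOX than on the pluripotent arrays, while CYP26A1, which degrades retinoic acid, was 1.64 and RARB, a retinoic acid receptor, 2.21 higher on the RA than on the pluripotent arrays. By limma CDKN1A and MDM2 were also higher after RA, by 0.92 (adjusted p = 0.00133) and 0.42 (adjusted p = 0.0336). CYP26A1 and RARB were not called after DOX (adjusted p = 0.124 and 0.939). Of the listed stem cell markers, POU5F1 and TDGF1 had no probe set of their own. Each of the 7 measured stem cell markers lay above the median probe set on average over the 9 arrays, and their mean level was 12.20 on DOX, 12.42 on RA and 12.35 on pluripotent arrays. Of these, SOX2 fell by 0.46 after DOX (adjusted p = 0.00554), and the other 6 did not pass the test in that comparison, nor did any of the 7 after RA. After RA 4 of the 7 had an unadjusted limma p under 0.05. On RA against DOX arrays SOX2, LIN28A, DNMT3B and PODXL were called higher, by 0.27 to 0.36, and none was called lower. Over all genes 12.1% were called after DOX, 4.84% after RA and 18% between the treatments.

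These peptides act on blood vessels and on fluid balance. NPPB and NPPA encode the B-type and A-type natriuretic peptides, hormones of the heart that raise cyclic GMP through the receptor NPR1, promote salt excretion and relax vessels. ADM and ADM2 encode adrenomedullin and intermedin, vasodilators that signal through the receptor CALCRL, whose ligand preference is set by the partner proteins RAMP1, RAMP2 and RAMP3. EDN1 encodes endothelin 1, a strong vasoconstrictor that binds the receptors encoded by EDNRA and EDNRB. In the embryo endothelin signalling acts on neural crest cells, adrenomedullin signalling on lymphatic vessels, and the natriuretic peptide genes mark the forming heart chambers.

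Among the natriuretic peptides, NPPB was high on the DOX arrays alone, and its neighbour NPPA was not called in any comparison. NPPB stood at 8.90, 8.19 and 8.56 on the 3 DOX arrays, at 4.73, 4.48 and 4.90 on the RA arrays and at 5.06, 4.65 and 4.66 on the pluripotent arrays. Every DOX array lay above every other array by more than 3 log2 units, whereas the RA and pluripotent arrays overlapped. The group means were 8.55 ± 0.36 after DOX, 4.71 ± 0.21 after RA and 4.79 ± 0.23 in pluripotent cells (SD, n = 3 arrays each). The DOX level was 3.76 ± 0.18 (SE) above the pluripotent level, a 13.5-fold difference, and the RA level differed from the pluripotent level by −0.09 ± 0.18. Since the RA and pluripotent levels lie close to the median probe set, the 13.5-fold difference may be a lower bound. Of the 15 probe sets, NPPB also had the largest SD among DOX arrays.

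NPPA, which the RefSeq gene table of GRCh38.p14 places next to NPPB among the protein-coding genes of chromosome 1, stood at 5.94, 5.82 and 5.83 on DOX arrays, 5.82, 5.87 and 5.93 on RA arrays and 5.72, 5.82 and 5.65 on pluripotent arrays. These ranges overlapped. The DOX difference was 0.14 ± 0.08 (adjusted p = 0.38, 95% interval −0.03 to 0.30) and the RA difference 0.14 ± 0.08 (adjusted p = 0.505, 95% interval −0.02 to 0.31), so changes of the size seen for NPPB lie far outside both intervals. The value 5.82 recurred on 3 arrays, 1 of each condition, identical to 4 decimals.

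The promoter window of NPPA is shown as that of the natriuretic peptide gene that did not pass the test. Windows in the RefSeq table run from 250 bases before to 50 bases after the gene's start on GRCh38.p14, and 7 of the 10 listed genes were matched, with 10 windows in all. NPPB, RAMP1 and RAMP2 were not matched. The NPPA window is chr1:11847734-11848033 on the minus strand. Capitals mark an AP-1 motif (TGANTCA), motifs for GATA factors (GATAA) and a TATA motif (TATAAA), each searched on both strands, and here none of them overlap.
NPPA: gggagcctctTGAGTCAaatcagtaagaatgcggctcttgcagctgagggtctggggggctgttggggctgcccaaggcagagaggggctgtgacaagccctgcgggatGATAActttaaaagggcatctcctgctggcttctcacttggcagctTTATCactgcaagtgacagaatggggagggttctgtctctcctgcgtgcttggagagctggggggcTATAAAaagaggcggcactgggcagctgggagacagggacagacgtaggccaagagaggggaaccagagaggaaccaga
The AP-1 match begins 240 bases before the start, the GATA matches 141 and 95 bases before it and the TATA match 29 bases before it. Among all 35116 windows of that length, 7.71% held the AP-1 motif, 22.7% the GATA motif and 11.5% the TATA motif. The hypoxia response element core (ACGTG), the retinoic acid receptor motif (AGGTCA) and the p53 response element's repeat unit were also searched. None of these had a match in the NPPA window.

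ADM was high after both treatments. Its levels were 11.90, 11.94 and 11.92 on DOX arrays, 11.63, 11.69 and 11.89 on RA arrays and 9.66, 9.64 and 9.47 on pluripotent arrays. All treated arrays lay above all pluripotent arrays, and every DOX array lay above every RA array, the nearest pair being 11.90 for DOX and 11.89 for RA. Means were 11.92 ± 0.02 after DOX, 11.74 ± 0.13 after RA and 9.59 ± 0.10 in pluripotent cells (SD, n = 3 arrays each). The DOX level was 2.33 ± 0.09 (SE) above the pluripotent one, or 5.02-fold, and the RA level 2.14 ± 0.09 above it, or 4.42-fold. Both differences use the same pluripotent arrays. Between the treatments the RA level was 0.18 ± 0.09 lower, which is given as a description with no test. ADM lay well above the median probe set in all 3 conditions.

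ADM2 rose after DOX by a small amount. It stood at 6.26, 6.20 and 6.08 on DOX arrays, 5.99, 5.96 and 5.84 on RA arrays and 5.85, 5.85 and 5.82 on pluripotent arrays. The DOX arrays lay above all others, and the RA and pluripotent arrays overlapped. ADM2 rose by 0.34 ± 0.08 after DOX (adjusted p = 0.0201), a 1.27-fold change, and differed by 0.09 ± 0.08 after RA (adjusted p = 0.752). The DOX call was lost in 4 of the 9 fits that left out 1 array. It was 0.30 without the first DOX array (adjusted p = 0.0658), 0.33 without the second (adjusted p = 0.0636), 0.35 without the first pluripotent array (adjusted p = 0.0662) and 0.34 without the second (adjusted p = 0.0693).

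The promoter window of ADM is shown because this gene was high after both agents. It lies at chr11:10304823-10305122 on the plus strand of GRCh38.p14, and the capitals mark its TATA motif (TATAAA), which begins 27 bases before the start.
ADM: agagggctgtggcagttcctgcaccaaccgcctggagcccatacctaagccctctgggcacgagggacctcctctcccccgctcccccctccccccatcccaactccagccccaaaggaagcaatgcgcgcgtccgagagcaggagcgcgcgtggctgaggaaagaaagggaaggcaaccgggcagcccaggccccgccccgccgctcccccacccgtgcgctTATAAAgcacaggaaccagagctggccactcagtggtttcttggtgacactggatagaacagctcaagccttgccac
No match was found in it for the AP-1 motif, for the GATA motif, for the core of the hypoxia response element (ACGTG, in 21.4% of all windows), for the retinoic acid receptor motif (AGGTCA, in 13.8%) or for the p53 response element's repeat unit (in 6.63%). This says only that these letters are not in this window.

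The receptor parts for adrenomedullin were not called in any comparison. CALCRL, the receptor itself, was measured by 3 probe sets, all below the median probe set on all 9 arrays. Over the 9 arrays 206331_at lay between 3.54 and 3.91, 210815_s_at between 3.38 and 3.76 and 234996_at between 2.69 and 2.99. For 210815_s_at, 4 arrays carried the same value of 3.59. The CALCRL changes after DOX were −0.11 (206331_at), −0.15 (210815_s_at) and 0.05 (234996_at), with adjusted p-values of 0.552, 0.399 and 0.836, and after RA −0.16, −0.10 and 0.01, with adjusted p-values of 0.522, 0.76 and 0.992. A level this low is not shown to be above background, so the data do not show whether the receptor is expressed. RAMP1 stood at 5.37, 5.42 and 5.55 on DOX arrays, 5.37, 5.44 and 5.28 on RA arrays and 5.37, 5.25 and 5.28 on pluripotent arrays. Its DOX change was 0.15 (95% interval −0.03 to 0.32, adjusted p = 0.355) and its RA change 0.06 (95% interval −0.11 to 0.24, adjusted p = 0.848). RAMP2, the partner that makes CALCRL an adrenomedullin receptor, stood at 4.93, 5.00 and 5.18 on DOX arrays, 5.26, 5.65 and 5.11 on RA arrays and 5.23, 5.07 and 5.16 on pluripotent arrays. Its DOX change was −0.12 (95% interval −0.40 to 0.17, adjusted p = 0.706) and its RA change 0.18 (95% interval −0.10 to 0.47, adjusted p = 0.672). The groups overlapped for both partner genes.

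**Figure D1:**
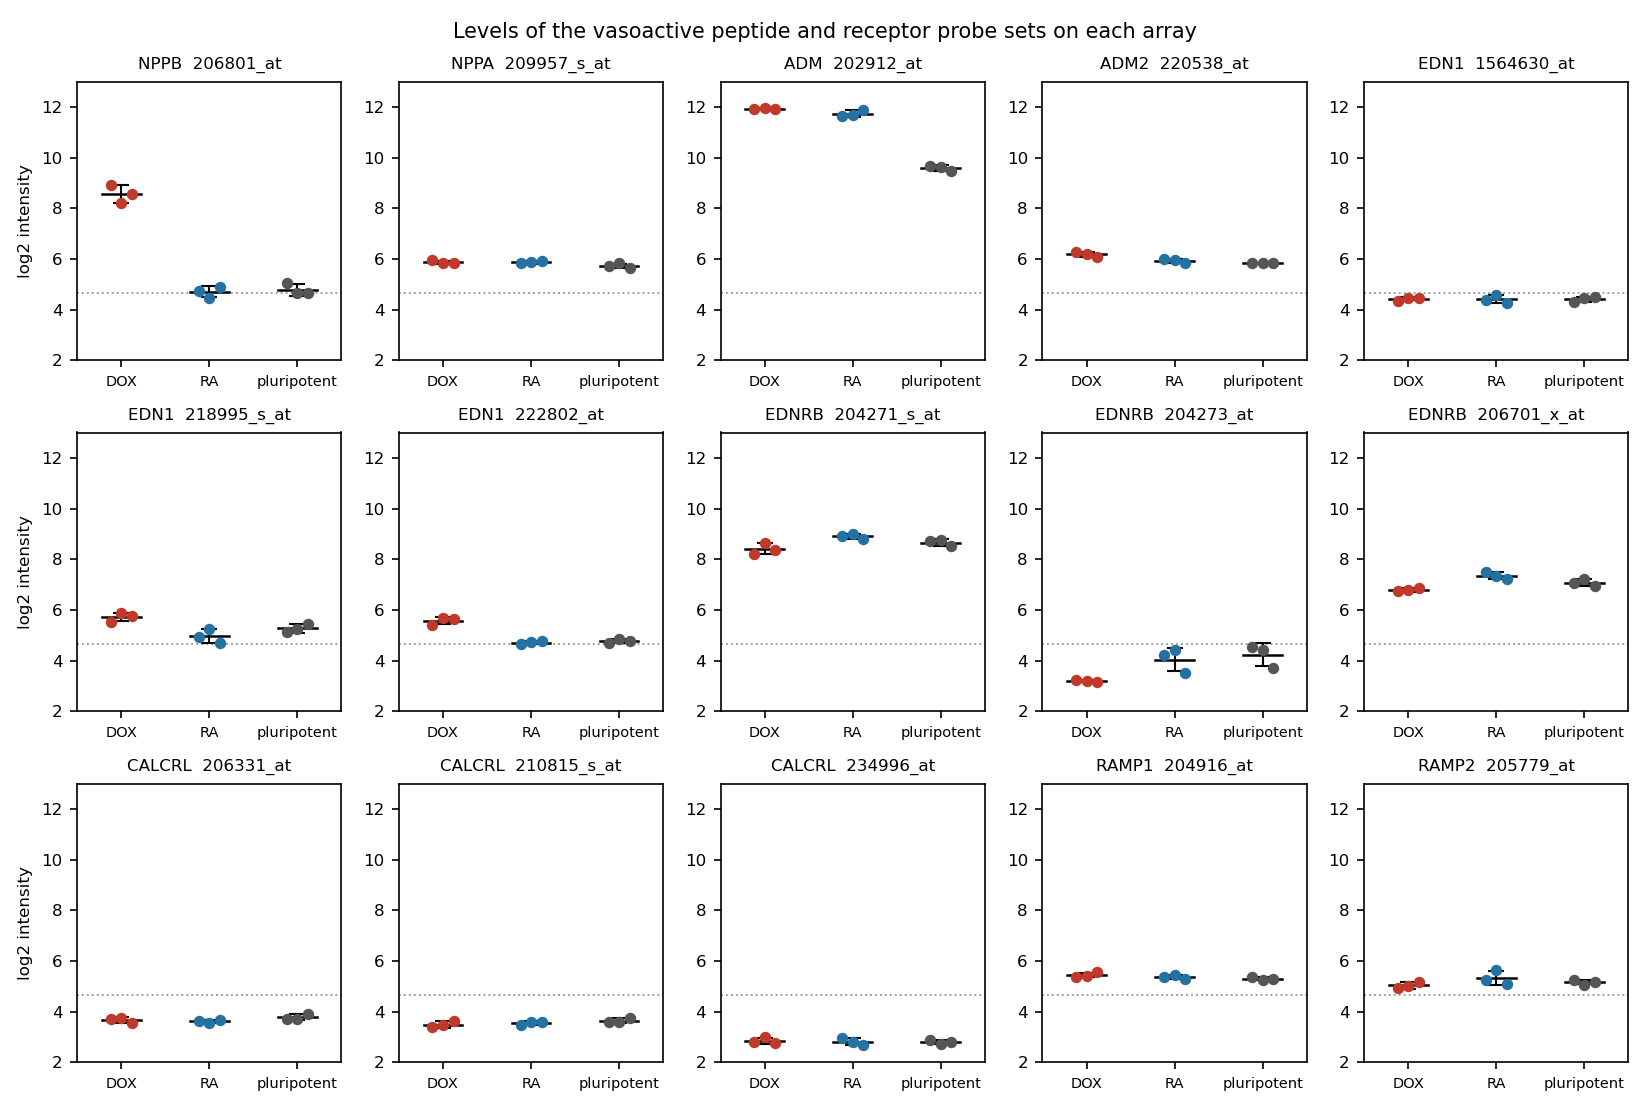
Each panel plots 1 probe set, with normalised log2 intensity on the y axis, 1 point per array, and bars for the mean ± SD of the 3 arrays of a condition; the dotted line is the median probe set at 4.66. NPPB stands above 8 on the DOX arrays only, ADM stands above 11 on DOX and RA arrays against a pluripotent mean of 9.59, and the 3 CALCRL probe sets stay below the dotted line.

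For endothelin 1 the probe sets differed in what they showed. With 222802_at, EDN1 stood at 5.42, 5.70 and 5.63 on DOX arrays, 4.64, 4.74 and 4.77 on RA arrays and 4.70, 4.87 and 4.77 on pluripotent arrays. All DOX arrays lay above all others. By this probe set EDN1 rose by 0.80 ± 0.09 after DOX (adjusted p = 0.000285), a 1.74-fold change, and differed by −0.06 ± 0.09 after RA (adjusted p = 0.872). With 218995_s_at, which had the highest mean of the 3, EDN1 stood at 5.54, 5.86 and 5.76 on DOX arrays, 4.93, 5.26 and 4.70 on RA arrays and 5.13, 5.24 and 5.47 on pluripotent arrays. The DOX arrays again lay above the pluripotent ones, but the change of 0.44 ± 0.14 did not pass the test (adjusted p = 0.103), nor did the RA change of −0.32 ± 0.14 (adjusted p = 0.395). The remaining probe set for EDN1, 1564630_at, lay between 4.28 and 4.57 over the 9 arrays, below the median probe set, and its changes were 0.01 after DOX (adjusted p = 0.972) and 0.00 after RA (adjusted p = 0.999). With the mean of the 3 probe sets of EDN1 the DOX change was 0.42 and passed the test (adjusted p = 0.0106).

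EDN1 has 3 promoter windows in the RefSeq table, and the last is shown because it alone holds a TATA motif. It lies at chr6:12290111-12290410 on the plus strand of GRCh38.p14. Capitals mark a GATA motif that begins 136 bases before the start, a hypoxia response element core 123 bases before it, both on the opposite strand, and the TATA motif 31 bases before it.
EDN1: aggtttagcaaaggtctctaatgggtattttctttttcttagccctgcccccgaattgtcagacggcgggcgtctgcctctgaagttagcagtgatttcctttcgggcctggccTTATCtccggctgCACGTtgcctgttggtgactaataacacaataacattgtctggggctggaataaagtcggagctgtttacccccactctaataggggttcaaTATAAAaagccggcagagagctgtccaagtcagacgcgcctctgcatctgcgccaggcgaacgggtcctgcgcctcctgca
No window of the 3 held the AP-1 motif, the retinoic acid receptor motif or the p53 repeat unit as searched. The first held 2 hypoxia response element cores and no GATA or TATA motif, and the second held no motif of the 6 searched. This says only that the searched letters are absent, and sites that differ from them were not counted.

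EDNRB, the endothelin receptor of neural crest and endothelium, had a negative DOX change by each of its 3 probe sets, and 1 of these passed the test. By 204271_s_at EDNRB stood at 8.22, 8.65 and 8.36 on DOX arrays, 8.92, 8.998 and 8.80 on RA arrays and 8.70, 8.77 and 8.52 on pluripotent arrays. The DOX and pluripotent arrays overlapped, and the change was −0.25 ± 0.12 (adjusted p = 0.265). By 206701_x_at it stood at 6.73, 6.78 and 6.86 on DOX arrays, 7.48, 7.36 and 7.23 on RA arrays and 7.05, 7.24 and 6.96 on pluripotent arrays, with a DOX change of −0.29 ± 0.09 (adjusted p = 0.1). By 204273_at it stood at 3.25, 3.20 and 3.17 on DOX arrays, 4.21, 4.41 and 3.53 on RA arrays and 4.54, 4.44 and 3.72 on pluripotent arrays. With that probe set EDNRB fell by 1.03 on the log2 scale after DOX (SE 0.24, adjusted p = 0.0223), but all of its levels lay below the median probe set. The call was lost in 5 fits that left out 1 array. The change was −1.05, −1.03 and −1.01 without the first, the second and the third DOX array (adjusted p = 0.0563, 0.0724 and 0.0771), and −0.88 and −0.93 without the first and second pluripotent array (adjusted p = 0.101 and 0.0941). With the mean of the 3 probe sets the DOX change of EDNRB was −0.52 and passed the test (adjusted p = 0.0168). That mean includes 204273_at, which had the largest fall and the lowest level, while neither brighter probe set passed alone. After RA the changes were 0.25, 0.27 and −0.19 for 204271_s_at, 206701_x_at and 204273_at of EDNRB, and none passed (adjusted p = 0.432, 0.215 and 0.848). In bulk samples fewer expressing cells and less RNA per cell cannot be told apart.

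Apart from NPPB and ADM, 13 probe sets of 7 genes were tested. After DOX 2 rose, 1 fell and 10 did not pass, where 7.71% of all 54613 probe sets were called, 3.2% higher and 4.52% lower. The DOX and pluripotent arrays did not overlap for 5 of the 13, beside 21.3% of all probe sets. Their median change was 0.01, as over all probe sets. After RA none of the 13 passed limma's test in either direction, with 2 at an unadjusted p under 0.05, where 2.95% of all probe sets were called, 1.47% higher and 1.48% lower. RA and pluripotent arrays did not overlap for 2 of the 13, beside 16.7% of all probe sets. The median change of the 13 was 0.01, beside 0.00 over all probe sets. Probe sets of 1 gene measure the same transcripts and are not separate observations.

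Set directly against each other, RA and DOX differed for both endothelin genes. Of the 13 probe sets 3 were higher and 2 lower on the RA arrays, where 12.2% of all probe sets were called, 7.11% higher and 5.13% lower, and these 5 were the 3 of EDNRB and 2 of EDN1. EDNRB was higher after RA by 0.50 ± 0.12 (204271_s_at, adjusted p = 0.0163), 0.56 ± 0.09 (206701_x_at, adjusted p = 0.00248) and 0.84 ± 0.24 (204273_at, adjusted p = 0.0419), and in each case all RA arrays lay above all DOX arrays. EDN1 was lower after RA by 0.87 on the log2 scale with 222802_at (SE 0.09, adjusted p = 9.48e-05) and by 0.76 with 218995_s_at (SE 0.14, adjusted p = 0.00515), again without overlap, while 1564630_at was at −0.01 (adjusted p = 0.963). RA and DOX arrays did not overlap for 6 of the 13, beside 26.4% of all probe sets. The ligand and its receptor gene therefore stood in opposite order in the treated groups. For EDNRB the 206701_x_at call held in each fit that left out 1 array. When x_at and s_at probe sets are left out, only 204273_at of EDNRB remains, and its levels lay below the median probe set. The 204271_s_at call was lost without the first DOX array (0.40, adjusted p = 0.0573), the third DOX array (0.47, adjusted p = 0.0583), the first RA array (0.49, adjusted p = 0.0565) and the second RA array (0.45, adjusted p = 0.0684). The 204273_at call of EDNRB was lost without any 1 DOX array (0.86, 0.84 and 0.82, adjusted p = 0.087, 0.11 and 0.117), without the first or second RA array (0.76 and 0.66, adjusted p = 0.139 and 0.154) and without the second pluripotent array (0.84, adjusted p = 0.0518). NPPB was 3.84 ± 0.18 lower on RA than on DOX arrays, and ADM2 was 0.25 ± 0.08 lower without passing the test (adjusted p = 0.0575). The ADM2 difference did pass in 5 of 19 alternatives. These were 1 probe set per gene (adjusted p = 0.0303), the mean per gene (adjusted p = 0.021), levels above the median (adjusted p = 0.0304), a further quantile normalization (adjusted p = 0.0259) and the fit without the third DOX array (adjusted p = 0.0397).

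**Figure D2:**
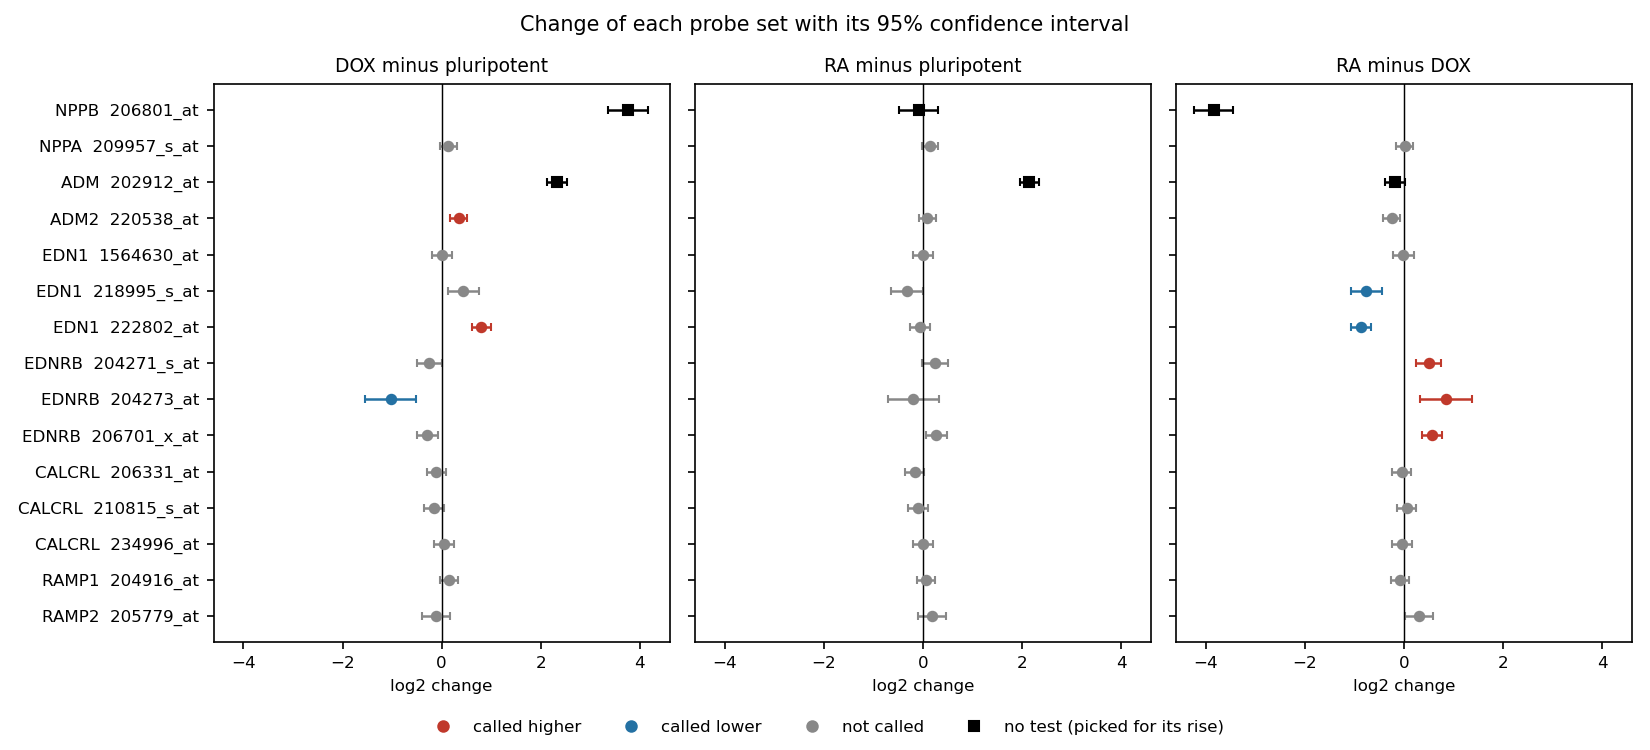
Each panel plots the log2 change of the 15 probe sets in 1 comparison with its 95% confidence interval. Squares are NPPB and ADM, which were picked for their rises and have no test, so their intervals are not to be read as one. The DOX panel shows NPPB at 3.76 and ADM at 2.33, and the RA panel shows ADM at 2.14 with NPPB near 0. The RA minus DOX panel shows NPPB at −3.84 and EDNRB to the right of 0. In it 222802_at and 218995_s_at of EDN1 lie to the left of 0, and 1564630_at lies at −0.01.

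The genes most like each peptide were found over the 9 arrays as those with the smallest root mean square difference between mean-centred profiles, a measure that counts size as well as shape. For NPPB they were PLK2, a polo-like kinase and p53 target, FOS, an AP-1 subunit, and EGR3, an immediate-early zinc finger factor. Their differences from NPPB were 0.290, 0.307 and 0.330 log2 units, with Pearson r of 0.990, 0.994 and 0.983. PLK2 averaged 10.09 on DOX, 5.96 on RA and 6.03 on pluripotent arrays, FOS 7.65, 4.28 and 4.46, and EGR3 8.16, 4.26 and 4.70. The nearest to ADM were ID4, an inhibitor of basic helix-loop-helix factors, CFTR, a chloride channel, and C11orf96, at 0.367, 0.419 and 0.422 log2 units and r of 0.938, 0.940 and 0.946. Relative to the pluripotent arrays these genes were 1.68, 1.47 and 2.82 higher after DOX and 2.30, 1.65 and 2.16 higher after RA. For EDN1, by 218995_s_at, they were EFNB2, which encodes ephrin B2, FRMD4A, a scaffold protein gene, and WDR45, an autophagy gene, at 0.121, 0.127 and 0.135 log2 units and r of 0.944, 0.951 and 0.937. The points behind each r share the 3 conditions, so these values are a description of the 9 arrays.

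**Figure D3:**
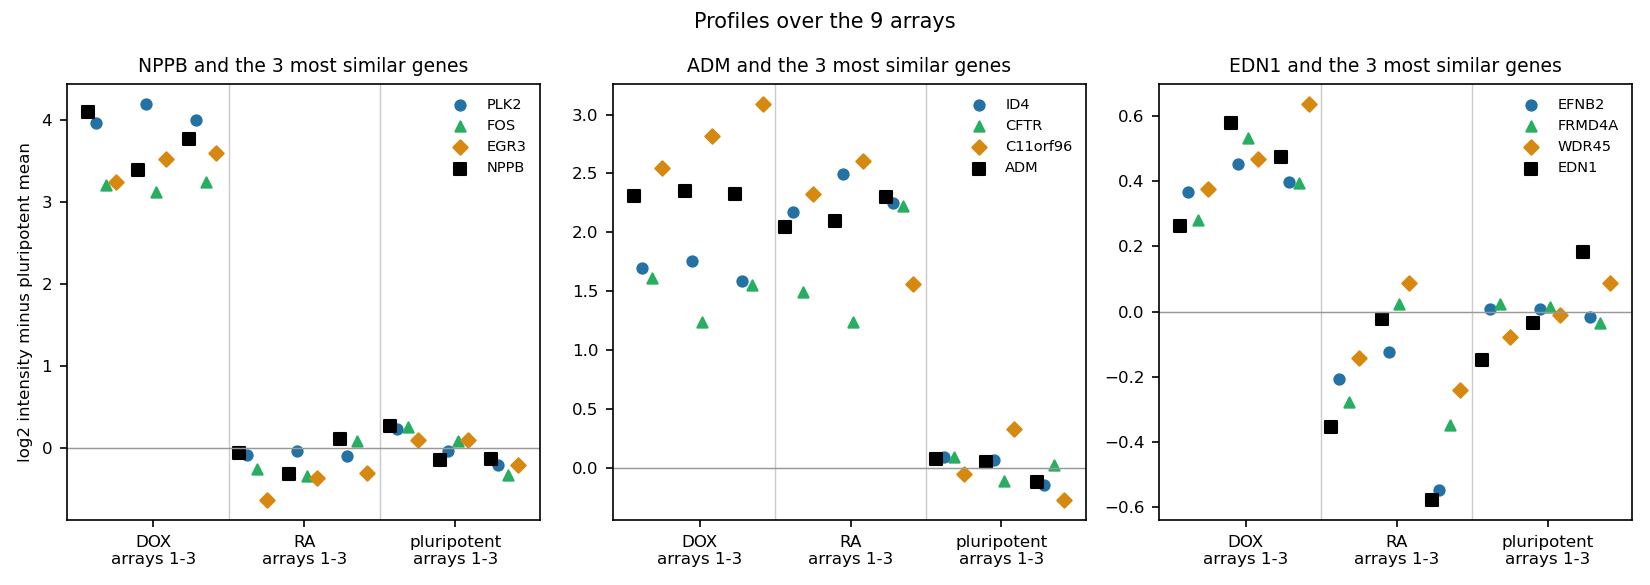
Each panel plots the log2 intensity of 1 peptide gene (black squares) and of the 3 genes most like it, as the difference from the gene's own pluripotent mean, on each of the 9 arrays; symbols of 1 array are set side by side. The NPPB panel is high on DOX arrays alone, the ADM panel on DOX and RA arrays, and the EDN1 panel spans less than 1.5 log2 units, with DOX arrays above 0.

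The other genes of these 3 systems were taken from fixed lists, with each gene represented by its probe set with the highest mean. NPR2 had no probe set of its own. Of the 9 other natriuretic genes measured none passed limma's test after DOX, with 2 at an unadjusted p under 0.05, and none after RA, with 1 at that level, where 12.1% and 4.84% of all 19775 genes were called. By direction these were 4.67% higher and 7.4% lower after DOX, and 2.42% higher and 2.43% lower after RA. FURIN, a protease that can cut the B-type precursor, was at 0.39 after DOX (adjusted p = 0.0532), and NPR1, the receptor for both peptides, was at 0.18 after DOX (adjusted p = 0.323) and 0.10 after RA (adjusted p = 0.75). MME, the neutral endopeptidase that degrades natriuretic peptides, was 0.51 ± 0.12 higher on RA than on DOX arrays (adjusted p = 0.0147), the only one of the 9 called there, where 18% of all genes were, 10.7% higher and 7.26% lower. The median change of the 9 was 0.05 after DOX and 0.06 after RA, beside 0.00 in both cases over all genes.

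In the adrenomedullin and CGRP list none of 7 other genes passed limma's test in any of the 3 comparisons, with 2 at an unadjusted p under 0.05 after DOX, 1 after RA and 0 between the treatments. Over all genes 12.1% were called after DOX, 4.84% after RA and 18% between the treatments. PAM, the enzyme that amidates adrenomedullin, was at −0.19 after DOX (adjusted p = 0.227) and −0.21 after RA (adjusted p = 0.319), and ACKR3, a scavenger receptor for adrenomedullin, was at 0.47 after DOX (adjusted p = 0.256). The median of the 7 was 0.04 after DOX and −0.04 after RA. Of 5 other endothelin genes likewise none passed limma's test in any comparison, with 2 at an unadjusted p under 0.05 after DOX, 0 after RA and 1 between the treatments. Among them ECE1, the converting enzyme that releases mature endothelin, was at 0.17 after DOX (adjusted p = 0.315) and EDN2 at 0.31 (adjusted p = 0.164). The median of the 5 was 0.01 after DOX and −0.06 after RA.

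Beyond these systems, 22 genes of other vasoactive peptides were measured, of which 1 rose and 1 fell after DOX and 0 rose and 2 fell after RA, beside 12.1% of all genes called after DOX and 4.84% after RA. TAC1, which encodes the vasodilator neuropeptide substance P, stood at 6.31, 6.70 and 6.53 on DOX arrays, 4.73, 4.72 and 4.93 on RA arrays and 4.93, 4.80 and 4.21 on pluripotent arrays. It rose by 1.87 ± 0.17 after DOX (adjusted p = 6.1e-05), was at 0.15 after RA (adjusted p = 0.828), and so shared with NPPB a level high on DOX arrays alone. NPY1R, a receptor for the vasoconstrictor neuropeptide Y, fell by 0.82 after DOX (SE 0.09, adjusted p = 0.000374) and by 1.08 after RA (SE 0.09, adjusted p = 8.04e-05). APELA, a peptide hormone of stem cells that binds the apelin receptor, stood at 11.82, 11.92 and 11.64 on DOX arrays, 10.92, 11.05 and 11.63 on RA arrays and 12.18, 12.21 and 12.37 on pluripotent arrays. It fell by 1.05 after RA (SE 0.16, adjusted p = 0.00429), and its DOX change of −0.46 did not pass (adjusted p = 0.129). The list's median change was 0.04 after DOX and −0.02 after RA.

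Since ADM is a known target of hypoxia-inducible factors, 11 other hypoxia-induced genes were set beside it. After DOX 3 rose and 2 fell, and after RA 1 rose and 0 fell, with medians of 0.00 and 0.01. Over all genes 12.1% were called after DOX and 4.84% after RA. NDRG1, a stress-response gene, rose by 0.96 ± 0.10 after DOX (adjusted p = 0.000167) and was at 0.04 after RA. VEGFA, the angiogenic growth factor, was the one gene of the list to rise in both, by 0.59 ± 0.09 after DOX (adjusted p = 0.00192) and 0.47 ± 0.09 after RA (adjusted p = 0.0134). SLC2A1, a glucose transporter, rose by 0.54 after DOX (adjusted p = 0.0315), whereas BNIP3, a mitophagy receptor, fell by 0.92 (adjusted p = 0.0129) and P4HA1, a collagen hydroxylase subunit, by 0.49 (adjusted p = 0.0351). On RA against DOX arrays NDRG1 was lower (−0.92, adjusted p = 0.000138) and BNIP3 higher (0.93, adjusted p = 0.00792). The part of hypoxia signalling in the ADM values was not tested.

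**Figure D4:**
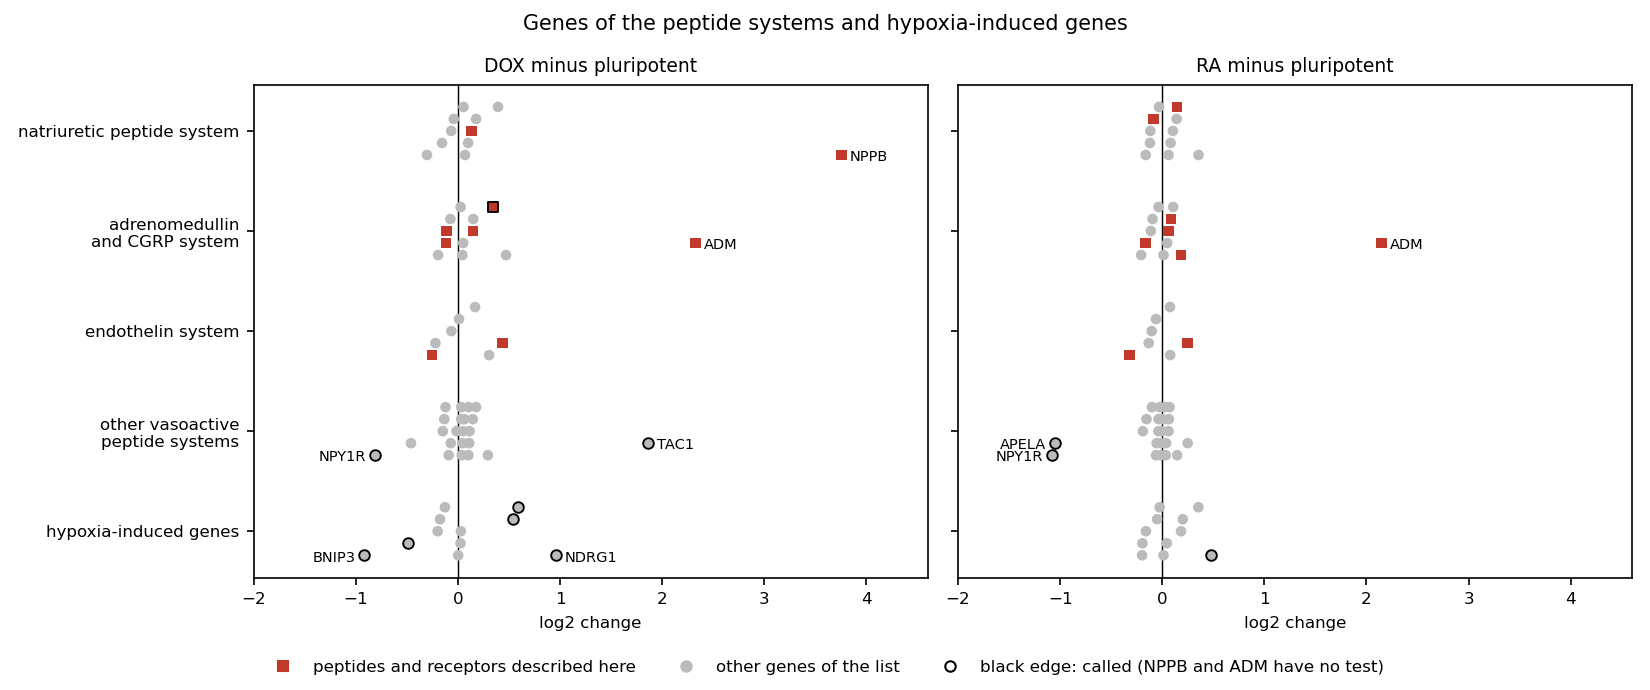
Each point is 1 gene, placed by its log2 change after DOX (left) or RA (right) against pluripotent cells and grouped by list; red squares are the peptides and receptors described here, and a black edge marks a gene past the test, and NPPB and ADM have none. NPPB, ADM and TAC1 lie to the right of 1 after DOX, ADM alone does after RA, and NPY1R lies to the left of 0 in both panels.

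Natriuretic peptides mark heart muscle, and EDNRB and the adrenomedullin receptor occur in endothelium, among other cells. Markers of heart muscle, endothelium and fibroblasts were therefore read on the same arrays. Of 11 measured cardiomyocyte markers 2 rose and 1 fell after DOX, where 12.1% of all genes were called, 4.67% higher and 7.4% lower. ACTC1, cardiac alpha actin, rose by 1.92 ± 0.07 (adjusted p = 8.46e-08) and MYL7, an atrial myosin light chain, by 1.01 ± 0.11 (adjusted p = 0.000198), while TNNI3, cardiac troponin I, fell by 0.43 (adjusted p = 0.0331). MYL2, TBX5, MYH7, RYR2 and PLN lay below the median probe set on average over the arrays, and NKX2-5, a heart transcription factor, averaged 5.80 on DOX, 5.72 on RA and 5.71 on pluripotent arrays. The summed intensity of the list ran from 12.69 to 12.77 in log2 on DOX arrays, from 10.53 to 10.58 on RA arrays and from 11.01 to 11.14 on pluripotent arrays. ACTC1 carries most of that sum, at 12.58 to 12.67 on DOX, 9.97 to 10.04 on RA and 10.63 to 10.80 on pluripotent arrays, while the mean level of the list was 5.68 on DOX, 5.31 on RA and 5.43 on pluripotent arrays. ACTC1 fell by 0.70 after RA (adjusted p = 0.000298), where 4.84% of all genes were called. On RA against DOX arrays ACTC1 (−2.62) and MYL7 (−1.45) were lower and TNNI3 (0.51) higher, where 18% of all genes were called. The part of these markers in the NPPB values was not tested.

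Of 12 endothelial markers none rose and 1 fell after DOX, and none was called after RA by limma. Over all genes 12.1% were called after DOX, 4.67% higher and 7.4% lower. After RA 4.84% of all genes were called, 2.42% higher and 2.43% lower. KDR, a receptor for VEGF, fell by 0.63 after DOX (adjusted p = 0.0262), and CDH5 and VWF lay below the median probe set on average over the arrays. The summed endothelial intensity ran from 9.11 to 9.18 in log2 on DOX arrays, from 9.11 to 9.26 on RA arrays and from 9.27 to 9.42 on pluripotent arrays. KDR is part of that sum, with 7.23 to 7.50 on DOX, 7.29 to 7.52 on RA and 7.60 to 8.19 on pluripotent arrays, and the mean level of the list was 4.91 on DOX, 4.87 on RA and 4.91 on pluripotent arrays. The part of these markers in the values of the peptides and receptors was not tested. Of 12 fibroblast and stromal markers 3 rose and 1 fell after DOX, and 2 rose and 1 fell after RA, beside those same shares over all genes. After DOX the risers were ACTA2 (1.70), TAGLN (1.59) and COL1A1 (1.08), and PDGFRA fell (−0.42). After RA COL1A1 rose by 1.00 and COL3A1 by 0.57 while TAGLN fell by 1.76 on the log2 scale. On RA against DOX arrays TAGLN (−3.36), ACTA2 (−1.73) and THY1 (−0.70) were lower and 1 marker was higher, where 18% of all genes were called. The summed intensity of that list ran from 13.31 to 13.39 in log2 on DOX arrays, from 12.30 to 12.37 on RA arrays and from 12.34 to 12.37 on pluripotent arrays. TAGLN and COL1A1 are large parts of that sum. TAGLN ran from 12.24 to 12.31 on DOX, 8.71 to 9.15 on RA and 10.54 to 10.76 on pluripotent arrays. COL1A1 ran from 11.32 to 11.61, 11.32 to 11.44 and 10.32 to 10.45 on these arrays. The mean level of the list was 7.36 on DOX, 6.86 on RA and 6.92 on pluripotent arrays. Sum and mean were thus highest on DOX arrays, where NPPB was also high. The part of these markers in the NPPB and ADM values was not tested.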

How the data were processed

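RNA of the 9 WA09 arrays was measured on 1-colour Affymetrix arrays, and the authors deposited log2 values per probe set, made with RMA and the package affy per the submitters' processing notes with no version stated there. RMA corrects background, normalises arrays by quantiles and summarises probes by median polish. Changes of dim probe sets can be compressed in RMA values. The log2 scale was read from the values, 2.36 to 14.84. The table held no unmapped column.

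The table lists 54675 probe sets, of which 54613 were tested and 62 array controls were dropped. The platform annotation gives exactly 1 gene to 41091 probe sets, several to 1801 and none to 11721. A linear model with 3 groups was fitted to all 9 arrays per probe set with limma 3.58.1 (lmFit, eBayes, 6 residual and 4.64 prior degrees of freedom) in R 4.3.3. Calls are at a Benjamini-Hochberg adjusted p under 0.05 over all probe sets. For gene lists each gene was represented by its probe set with the highest mean. Motif searches and figures used Python 3.11.15. The members, lists and tests were chosen with earlier results of these data known. Named genes are the members, the 3 nearest profiles of NPPB, ADM and EDN1, list genes called with a log2 change of 0.5 or more in either direction, and CDKN1A, MDM2, CYP26A1 and RARB; a few uncalled list genes and smaller changes were named after their values were seen, for their role.

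The number of arrays limits the precision. Replicate numbers recur across conditions. Deviations of same-numbered arrays from their group means correlated weakly, at 0.103 to 0.168, for all 3 pairs of DOX and pluripotent arrays. For RA and pluripotent arrays the range was −0.05 to 0.28 and for RA and DOX arrays −0.07 to 0.10. Correlations of differently numbered arrays were not computed, so these values do not settle whether the numbers pair arrays. No label says what a number shares. The main fit does not pair arrays, and a replicate block is among the alternatives.

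Alternatives were 1 probe set or the mean per gene, no x_at and s_at probe sets, only levels above the median, centred arrays, a further quantile normalization, fits on the compared groups alone, a trended and robust variance prior, array weights, a replicate block and each array left out. No pair among 36 pairs of arrays held identical values.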

Additional observations from a re-analysis of the deposited data

How the results depend on the processing

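NPPB and ADM each have 1 probe set, which every filter kept. Only array weights, centred arrays, the further quantile normalization and the fits without 1 array could therefore move their differences. Over these NPPB was 3.58 to 3.94 and ADM 2.27 to 2.36 above pluripotent cells after DOX, and ADM 2.07 to 2.20 above them after RA. No called value changed sign. The DOX rise of EDN1 by 222802_at passed in every alternative that kept that probe set. The sign of the near-zero NPPB difference after RA changed in 2 of 19 alternatives. Without 1 array each, 1 to 2 of the 13 tested probe sets rose and 0 to 1 fell after DOX, and 1 to 3 were higher and 2 to 3 lower on RA than on DOX arrays, while none was called after RA. With 1 probe set per gene 1 rose and 0 fell after DOX, and 1 was higher on RA than on DOX arrays, since most probe sets of EDN1 and EDNRB are then not tested. With the mean of a gene's probe sets 1 was higher on RA than on DOX arrays. Without x_at and s_at probe sets 1 was higher and 1 lower on RA than on DOX arrays. Above the median level 0 fell after DOX, because 204273_at was not tested.

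Over all features, DOX calls without 1 array ran from 1315 to 1720 higher and 1279 to 3028 lower, RA calls from 495 to 748 and 501 to 776, and RA against DOX from 2655 to 4185 and 2168 to 2904. The main counts were 1745 and 2466, 802 and 809, and 3882 and 2802. With 1 probe set per gene 1121 were higher after DOX, and 2498 higher and 1704 lower on RA than on DOX arrays. With the mean per gene there were 1071 higher and 1598 lower after DOX, and 2178 higher and 1575 lower on RA than on DOX arrays. Without x_at and s_at probe sets there were 1065 and 1537 after DOX, 500 and 442 after RA, and 2523 and 1573 on RA against DOX arrays.

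The replicate block cannot change a log2 change here, since every condition holds the same replicate numbers. It can change only the spread and so the calls. With it no tested probe set changed its side of the threshold, with 2 probe sets higher and 1 lower after DOX. Dim probe sets limit what can be seen: 5 of the 15 lie below the median probe set.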
